A study of Mus musculus with 6 samples.

Results

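The TCF/LEF factors Lef1, Tcf7, Tcf7l1 and Tcf7l2, the corepressors Tle1, Tle2, Tle3 and Tle4 and the coactivators Bcl9 and Bcl9l were examined in cortex with stabilised β-catenin. These 10 genes were taken by symbol from a table of 47794 genes, and all 10 were found and had been tested by the authors. The tissue was primary somatosensory cortex of C57BL/6 mice at postnatal day 14, and it was measured by RNA-seq. The overexpression group (Ovp) held 3 libraries from mice with the β-cat lox(ex3) allele and Nex-Cre, and the control group (Ctrl) held 3 libraries from mice with the β-cat lox(ex3) allele and no Cre. Both groups thus carried the floxed allele, and its copy number is not stated in the labels. Removal of exon 3 takes away the phosphorylation sites that mark β-catenin for degradation. Nex-Cre acts in excitatory neurons of the forebrain, whereas the RNA came from whole cortical tissue with its glia and vessels. Nothing in the labels ties a library to its own animal. Every p-value below therefore reflects library-to-library spread, which may be technical.

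In canonical Wnt signalling, TCF/LEF proteins sit on DNA at a short motif and recruit TLE corepressors of the Groucho family. When β-catenin reaches the nucleus it takes the place of TLE, and BCL9 proteins tie it to Pygopus and the rest of the activating complex. In the brain, Tcf7l2 is known for thalamic neurons and maturing oligodendrocytes, Lef1 for thalamic neurons and blood vessels, and Tle4 for corticothalamic neurons of layer 6. Lef1 and Tcf7 are themselves textbook targets of the pathway they serve, so their own level is one readout of it.

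The data were 1 deposited mean per gene and group, a scaled read count, in which the reads of each library are divided by its scaling factor before averaging. These authors' means summed to 18602579 in Ovp and 19016749 in Ctrl cortex. Library values, called A, B and C in each group, were recovered from the means for the genes where 1 combination of whole reads fitted. They cannot be tied to replicate numbers. All 4 TCF/LEF genes were recovered without ambiguity, and Tle2 and Tle1 in part. The other 4 genes had means above 1000, where many combinations fitted, and are given by group mean alone. Scaling factors, a measure of relative depth, came to 1.23, 1.06 and 0.966 in Ovp A, B and C and 0.982, 0.926 and 0.907 in Ctrl A, B and C. The tissue label was checked on 10 markers of cortical excitatory neurons. All were present, with a summed mean of 111122 in Ovp and 117237 in Ctrl cortex. Of the 10 markers 1 was higher and 9 lower in Ovp, where 42.2% of the 11645 genes whose mean reached 100 were higher. The authors' deposited table gave an unadjusted p under 0.05 for 0 of them, and the lean was not tested. The 2 most abundant of these markers were Camk2a at 63088 in Ovp and 66769 in Ctrl cortex, and Slc17a7 at 30449 in Ovp and 31689 in Ctrl cortex.

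None of the 10 genes changed by the authors' test. After adjustment 0 of 10 had a p under 0.05 in the authors' deposited table, against 0.0% of 30152 tested genes. Before adjustment 0 of 10 passed in the authors' deposited table, against 0.534% of those genes (161). limma on the recovered libraries called 0 of 5 at an adjusted p under 0.05 (0.0% of 10167 genes) and 0 of 5 at an unadjusted p under 0.05 (2.06%). In 0 of 5 were the Ovp and Ctrl libraries apart without overlap, as they were in 7.04% of the 10167 genes. At backgrounds this low, counts of 0 are not a result about these genes. The mean was higher in Ovp for 5 of them (Lef1, Tcf7, Tcf7l1, Tle2 and Tle4) and lower for 5, against 47.8% higher among 26236 genes above 0 in both groups and 43.9% among the 13228 whose mean reached 50. The group means lay within 1.2-fold of each other for 9 of 10, where the same held for 66.0% of the 26236 genes above 0 in both groups and for 97.3% of the 11645 whose mean reached 100, a level that Tcf7 and Tcf7l1 did not reach. Tle2 was the exception. The median log2 fold change over the 10 genes was -0.00055, against -0.017 over those 11645 genes. In bulk tissue, fewer cells of a type and less RNA per cell cannot be told apart.

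Start sites of Lef1, a known target of the pathway, and of Tcf7l2 are shown because 1 promoter of each holds the letters that TCF/LEF proteins read. The upstream start of Lef1, which holds none, stands beside them. RefSeq promoters (GRCm38.p6) were found for 9 of the 10 genes by symbol, 15 start sites in all, and Bcl9l had none. The 250 bases before each start site were searched on both strands for the letters CTTTGAA, the letters CTTTGAT, the letters CTTTGTA and the letters CTTTGTT, which do not contain one another. Capitals mark a match, and each sequence runs 5′ to 3′ on the gene's own strand.
Lef1, upstream start, chr3:131110047-131110296, plus strand: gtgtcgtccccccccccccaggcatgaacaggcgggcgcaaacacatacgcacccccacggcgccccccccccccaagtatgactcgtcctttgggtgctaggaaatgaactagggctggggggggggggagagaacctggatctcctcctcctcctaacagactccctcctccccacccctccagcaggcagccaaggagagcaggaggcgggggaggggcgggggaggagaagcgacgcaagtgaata
Lef1, downstream start, chr3:131156044-131156293, plus strand: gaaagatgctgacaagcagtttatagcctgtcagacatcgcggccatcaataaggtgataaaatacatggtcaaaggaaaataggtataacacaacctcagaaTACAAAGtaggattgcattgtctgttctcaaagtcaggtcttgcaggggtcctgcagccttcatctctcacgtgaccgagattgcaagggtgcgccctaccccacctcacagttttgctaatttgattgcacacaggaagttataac
Tcf7l2, downstream start, chr19:55895071-55895320, plus strand: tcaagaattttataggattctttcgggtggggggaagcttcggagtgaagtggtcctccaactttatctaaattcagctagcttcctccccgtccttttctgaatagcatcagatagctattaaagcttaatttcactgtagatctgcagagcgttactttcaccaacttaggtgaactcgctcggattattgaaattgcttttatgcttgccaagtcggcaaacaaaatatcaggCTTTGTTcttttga
The downstream start of Lef1 held CTTTGTA on the opposite strand, beginning 147 bases before the start site. At the downstream start of Tcf7l2, CTTTGTT began 14 bases before the start site. No match stood in the other 13 windows, those of Tcf7 among them. A match stood in 2 of these 15 windows (13.3%) and in 14.8% of all 32851 RefSeq promoters. A match is a run of letters and not a measured binding site.

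Lef1, a nuclear mediator of Wnt signals, had recovered values of 91.3, 119.5 and 100.4 in Ovp A, B and C, against 89.6, 90.7 and 122.4 in Ctrl A, B and C. Each group held 1 high library, Ovp B and Ctrl C, and the groups overlapped. The mean was 104 ± 14.4 in Ovp and 101 ± 18.6 in Ctrl cortex (SD, n = 3 each). limma, fitted to the recovered libraries of 10167 genes, gave a log2 fold change of 0.05 ± 0.18 (SE) with an unadjusted p of 0.806 and an adjusted p of 0.999. The 95% interval ran from 0.785-fold to 1.36-fold. For Lef1 the authors' deposited table listed an unadjusted p of 0.869.

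Tcf7, which encodes TCF-1, best known from T cells, had 68.4, 112 and 94.2 in Ovp A, B and C, against 77.4, 90.7 and 92.6 in Ctrl A, B and C. The Ovp libraries spread to both sides of the Ctrl libraries. The mean was 91.5 ± 21.9 in Ovp and 86.9 ± 8.31 in Ctrl cortex (SD, n = 3 each), with a limma 95% interval of 0.766-fold to 1.40-fold. The coefficient of variation was 23.9% in Ovp, where read counting alone would give 10.1%, and 9.56% in Ctrl, where it would give 11.1%.

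Tcf7l1, the family member that mostly represses, was the lowest by scaled count. It had 63.6, 81.9 and 70.4 in Ovp A, B and C, against 71.3, 75.6 and 58.4 in Ctrl A, B and C. The ranges overlapped, and the spread in each group (12.9% in Ovp, 13.03% in Ctrl) was close to that of read counting alone (11.4% in Ovp, 12.5% in Ctrl). The limma 95% interval was 0.790-fold to 1.40-fold.

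Tcf7l2, the factor of thalamic neurons and maturing oligodendrocytes, was the steadiest of the 4. It had 184, 204 and 191 in Ovp A, B and C, against 186, 204 and 211 in Ctrl A, B and C. The groups covered nearly the same range. The mean was 193 ± 10.2 in Ovp and 200.4 ± 12.6 in Ctrl cortex (SD, n = 3 each). The coefficient of variation was 5.26% in Ovp and 6.28% in Ctrl, below the 6.94% and 7.30% that read counting alone would give. Its limma 95% interval was the narrowest of the 4, from 0.803-fold to 1.16-fold, and the authors' deposited table gave an unadjusted p of 0.765.

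**Figure D1:**
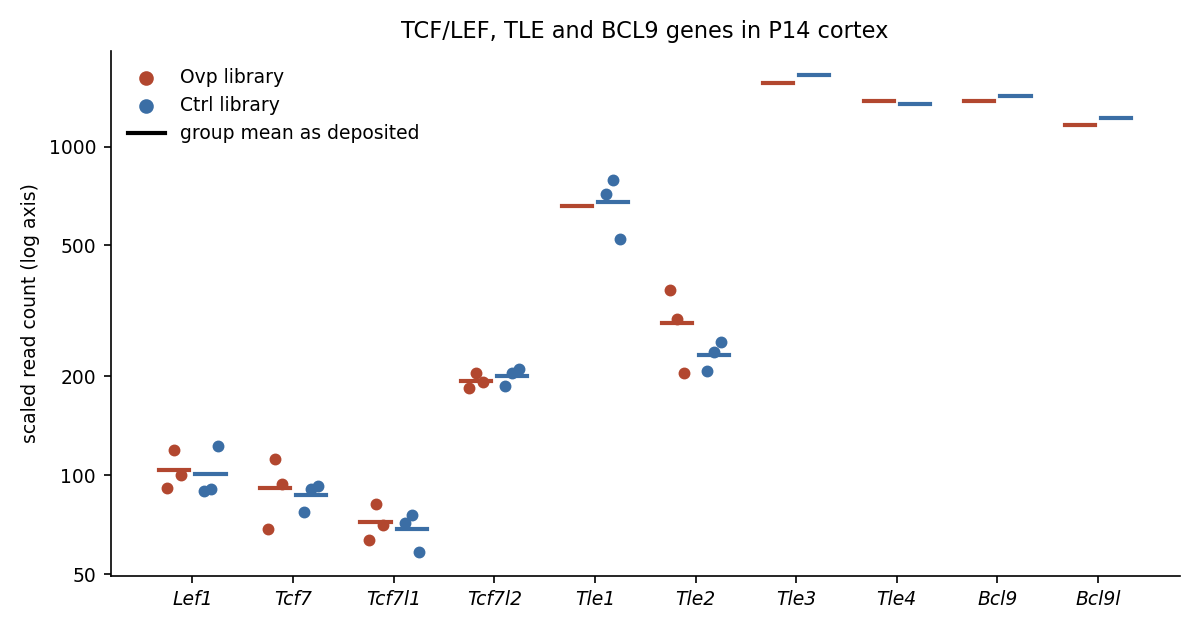
Scaled read counts (log axis) of the 10 genes in Ovp (red, left) and Ctrl (blue, right) cortex; dots are recovered libraries in the order A, B, C and bars are the authors' group means. Dots of the 2 groups overlap for the 4 TCF/LEF genes and for Tle2, and genes with bars alone had no single combination of reads in at least 1 group.

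The 4 TCF/LEF genes shared an order of libraries in Ovp cortex. All 4 were lowest in Ovp A and highest in Ovp B, with Ovp C between them. Among all 5550 recovered genes with a mean of 50 to 400, 20.4% had this order. The Ovp spread was close to that of read counting alone for Tcf7l1 and below it for Tcf7l2. The order of Tcf7l1 and Tcf7l2 therefore cannot be told from counting noise. For Lef1 and Tcf7 the Ovp coefficient of variation was above that of read counting alone. It was 13.9% against 9.49% for Lef1 and 23.9% against 10.1% for Tcf7. What sets the order of their libraries was not tested. In Ctrl cortex Lef1, Tcf7 and Tcf7l2 were lowest in Ctrl A and highest in Ctrl C, while Tcf7l1 was lowest in Ctrl C. Some blood vessel markers also differed between the Ovp libraries. Of 13 endothelial markers 5 were recovered, and their sum was 1387, 1824 and 1819 in Ovp A, B and C, against 1644, 1760 and 1716 in Ctrl A, B and C. All 5 were lowest in Ovp A, and the share of all genes lowest there is not given here. Cdh5, an endothelial cadherin, and Tie1, an endothelial receptor, were highest in Ovp B, with 371, 569 and 564 for Cdh5 and 315, 437 and 375 for Tie1 in Ovp A, B and C. Pecam1, Emcn and Ocln were highest in Ovp C, with 415, 524 and 572 for Pecam1, 117, 121 and 127 for Emcn and 169, 172 and 181 for Ocln in Ovp A, B and C. Emcn and Ocln thus hardly differed between these libraries (SD 4.99 and 6.39). In Ctrl cortex the markers shared no order, with Tie1 and Emcn highest in Ctrl C and Cdh5, Pecam1 and Ocln highest in Ctrl B. The part of vessel content in the values of Lef1 and Tcf7 was not tested. Over all 13 endothelial markers, none at 0, the summed mean was 7439 in Ovp and 7372 in Ctrl cortex, with Flt1 at 1235 in Ovp and 1153 in Ctrl and Mfsd2a at 846 in Ovp and 852 in Ctrl.

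**Figure D2:**
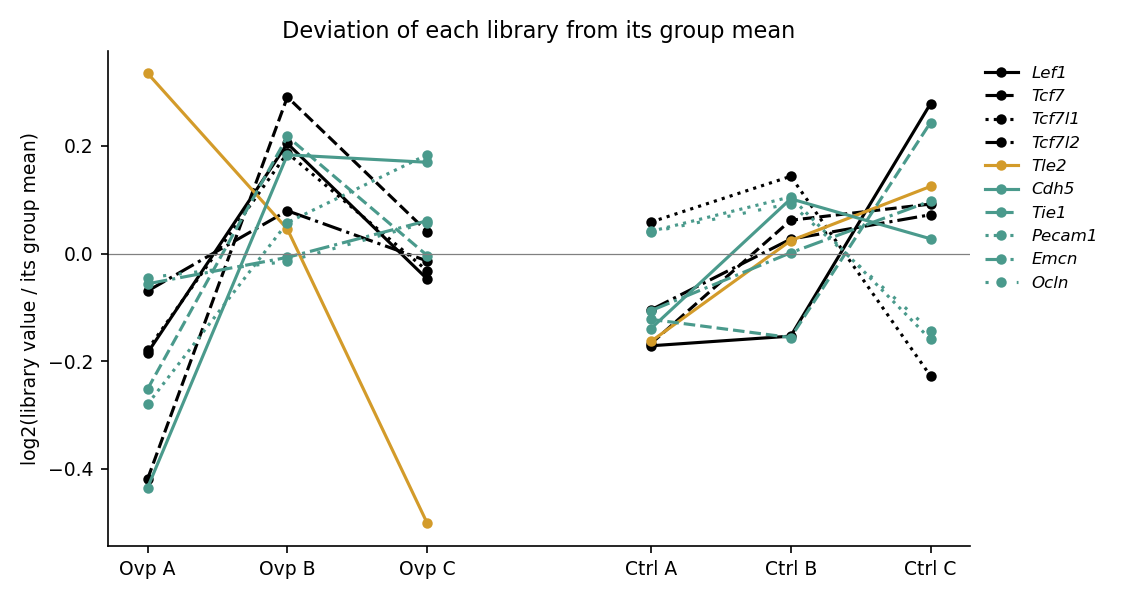
Deviation of each recovered library from its own group mean (log2) for the TCF/LEF genes (black), Tle2 (yellow) and the 5 recovered endothelial markers (green), Ovp libraries left and Ctrl libraries right; lines only join the points of 1 gene. The 4 TCF/LEF genes lie below their mean in Ovp A and above it in Ovp B. Tle2, in the combination drawn, lies highest in Ovp A and lowest in Ovp C. The other combination that fits its Ovp mean has Ovp A lowest and Ovp C highest.

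Among markers of other cells none passed the adjusted threshold in the authors' deposited table. For 11 thalamic neuron markers the summed mean was 2272 in Ovp and 2372 in Ctrl cortex, with Plekhg1 at 712 in Ovp and 725 in Ctrl and Slc17a6 at 448 in Ovp and 584 in Ctrl. Slc17a6, a glutamate transporter of thalamic neurons, had 476, 442 and 426 in Ovp A, B and C, against 649, 484 and 619 in Ctrl A, B and C. These values, searched only within 2-fold of the mean, did not overlap, as in 7.04% of 10167 recovered genes. Its unadjusted p was 0.0111 (authors' deposited table). It was the only 1 of the 11 under 0.05, where 0.534% of 30152 tested genes were. Slc17a6 was picked after its values were seen. Of the 11 thalamic markers 6 were higher and 4 lower in Ovp, beside Gbx2. Over the 10 recovered ones the sum ranged from 1438 to 1650 in Ovp and from 1606 to 1723 in Ctrl libraries. Gbx2, which defines the early thalamus, had 0.815, 1.88 and 0 in Ovp A, B and C and was at 0 in all 3 Ctrl libraries. The other recovered thalamic markers did not share 1 order of libraries. Lhx9 had 108, 11.3 and 86.9 in Ovp A, B and C, against 49.9, 54.0 and 1.10 in Ctrl A, B and C, and was lowest in Ovp B and Ctrl C, where Tcf7l2 was highest. Synpo2 had 48.1, 103.5 and 75.5 in Ovp A, B and C, against 61.1, 73.4 and 79.4 in Ctrl A, B and C, the same order as Tcf7l2 in both groups. The spread of Tcf7l2 was below that of read counting alone, so no link to Lhx9 or Synpo2 can be read from these orders. The 12 oligodendrocyte markers summed to 131235 in Ovp and 122415 in Ctrl cortex and were higher in Ovp for 11 of 12, with Mbp at 57327 in Ovp and 52980 in Ctrl. Of these 2 were recovered, with sums of 408 to 498 in Ovp and 432 to 435 in Ctrl libraries. Choroid plexus markers, 7 in all, summed to 5119 in Ovp and 5775 in Ctrl cortex. Most of this sum was Enpp2 alone, at 4916 in Ovp and 5398 in Ctrl. Ttr was at 122 in Ovp and 289.5 in Ctrl, with an unadjusted p of 0.449 in the authors' deposited table. Only 4 of the 7 reached a mean of 10, so the sum says little about choroid plexus content. The part of these cell types in the TCF/LEF values was not tested.

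Levels of different genes were set side by side per kilobase of exon, using the union of exons in GENCODE M21. The summed TCF/LEF level was 73.6, 100.4 and 87.0 scaled reads per kilobase in Ovp A, B and C, against 79.1, 87.4 and 88.1 in Ctrl A, B and C. The Ctrl libraries all lay inside the Ovp range. Tcf7 made up 39.7% ± 3.78 of this sum in Ovp and 38.96% ± 1.47 in Ctrl cortex (SD, n = 3 each). Tcf7l2 made up 25.6% ± 2.70 in Ovp and 26.9% ± 0.317 in Ctrl, Tcf7l1 21.1% ± 0.757 in Ovp and 20.6% ± 3.27 in Ctrl, and Lef1 13.6% ± 0.491 in Ovp and 13.5% ± 2.07 in Ctrl. In each of the 6 libraries the order was Tcf7, Tcf7l2, Tcf7l1 and Lef1. The order depends on the length used. With the median length of protein-coding transcripts, Tcf7l2 led with 37.6% in Ovp and 39.5% in Ctrl cortex, and Tcf7 followed with 26.2% in Ovp and 25.2% in Ctrl. With either length, the share of each gene by group mean differed between the groups by less than 2 percentage points.

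**Figure D3:**
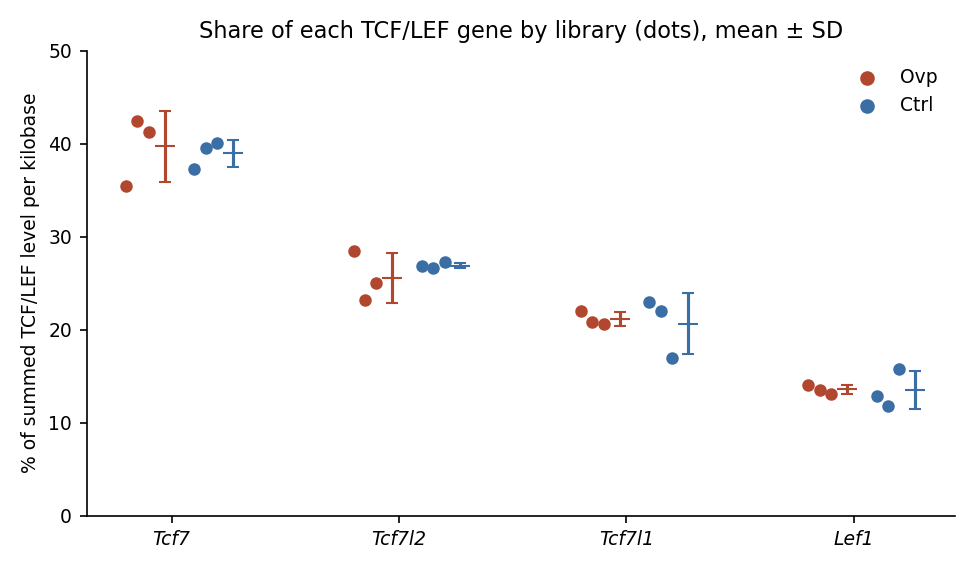
Share of each TCF/LEF gene in the summed TCF/LEF level per kilobase of exon (%), by library (dots) with mean ± SD (bars), Ovp red and left, Ctrl blue and right. Tcf7 lies between 35.4% and 42.5% in Ovp and between 37.3% and 40.0% in Ctrl libraries, and the ranges of the 2 groups overlap for every gene.

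TLE corepressors carry no DNA-binding domain of their own and are brought to DNA by TCF/LEF and other factors. Their summed level was 497 scaled reads per kilobase of exon in Ovp and 493 in Ctrl cortex, 5.71 times the TCF/LEF sum in Ovp and 5.81 times in Ctrl. Tle4, the layer 6 gene, was highest at 241 per kilobase in Ovp and 236 in Ctrl, followed by Tle3 at 134 in Ovp and 142 in Ctrl, Tle1 at 75.9 in Ovp and 77.6 in Ctrl, and Tle2 at 46.6 in Ovp and 37.4 in Ctrl. With transcript length in place of exon length Tle3 came before Tle4.

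Tle2 had the largest difference among the 10 genes, which did not pass the test, with a mean of 290 in Ovp and 233 in Ctrl cortex. Its recovered values were 366, 299 and 205 in Ovp A, B and C, against 208, 237 and 254 in Ctrl A, B and C. Ovp A and B lay above all Ctrl libraries, and Ovp C lay just below them. The coefficient of variation was 27.9% in Ovp, where read counting alone would give 5.602%, and 9.98% in Ctrl, where it would give 6.78%. limma gave a log2 fold change of 0.28 ± 0.18 (SE) with an unadjusted p of 0.149 and an adjusted p of 0.999, and the 95% interval ran from 0.923-fold to 1.60-fold. Of 5609 genes with a mean of 50 to 400, 5.35% had group means at least as far apart. The log2 fold change was 0.09 without Ovp A (unadjusted limma p 0.599) and 0.51 without Ovp C (unadjusted limma p 0.00454). Without any other library the unadjusted limma p lay between 0.125 and 0.351. No gene passed adjustment in any of these fits. A second combination of reads also fitted the Ovp mean, with 117, 308 and 445 in Ovp A, B and C. It lay outside the 2-fold window used for recovery and would give a log2 fold change of 0.12.

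Tle1 had a mean of 661 in Ovp and 676 in Ctrl cortex. Its Ovp mean fitted 2 combinations within 2-fold, 516, 609 and 859 or 764, 600.4 and 619 in Ovp A, B and C, against 717, 791 and 522 in Ctrl A, B and C. Under either the ranges of the groups overlapped, and Ctrl C stood below the other Ctrl libraries. For Tle1 the authors' deposited table listed an unadjusted p of 0.911.

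Tle3 and Tle4 were abundant and close between the groups. Tle3 had a mean of 1558 in Ovp and 1656 in Ctrl cortex, a log2 fold change of -0.09, with an unadjusted p of 0.462 in the authors' deposited table. Tle4 had 1374 in Ovp and 1345 in Ctrl cortex, a log2 fold change of 0.03, with an unadjusted p of 0.837 in the authors' deposited table. Beside Tle4, 8 markers of layer 6 corticothalamic neurons summed to 8586 in Ovp and 8394 in Ctrl cortex, 5 higher and 3 lower in Ovp and none of them under 0.05 by the unadjusted p that the authors' deposited table lists. The 2 most abundant were Tbr1 at 2847 in Ovp and 2946 in Ctrl and Hs3st4 at 1859 in Ovp and 1691 in Ctrl.

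Bcl9 and Bcl9l encode the adaptors that hold β-catenin and Pygopus together. Bcl9 had a mean of 1378 in Ovp and 1430 in Ctrl cortex, a log2 fold change of -0.05, with an unadjusted p of 0.658 in the authors' deposited table. Bcl9l had 1162 in Ovp and 1221 in Ctrl cortex, a log2 fold change of -0.07, with an unadjusted p of 0.556 in the authors' deposited table. No spread between libraries is known for either. Per kilobase of exon they stood at 163 and 145 in Ovp and at 169 and 153 in Ctrl, between Tle4 and Tle3. With transcript length in place of exon length both came after Tle3 and Tle4. Among protein-coding genes with a mean above 0, the level per kilobase of exon lay at percentile 72.5 for Bcl9 and 70.2 for Bcl9l, at 79.9 for Tle4, and at 29.8 to 41.8 for the 4 TCF/LEF genes. These percentiles depend on the length used and were computed with exon length alone.

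**Figure D4:**
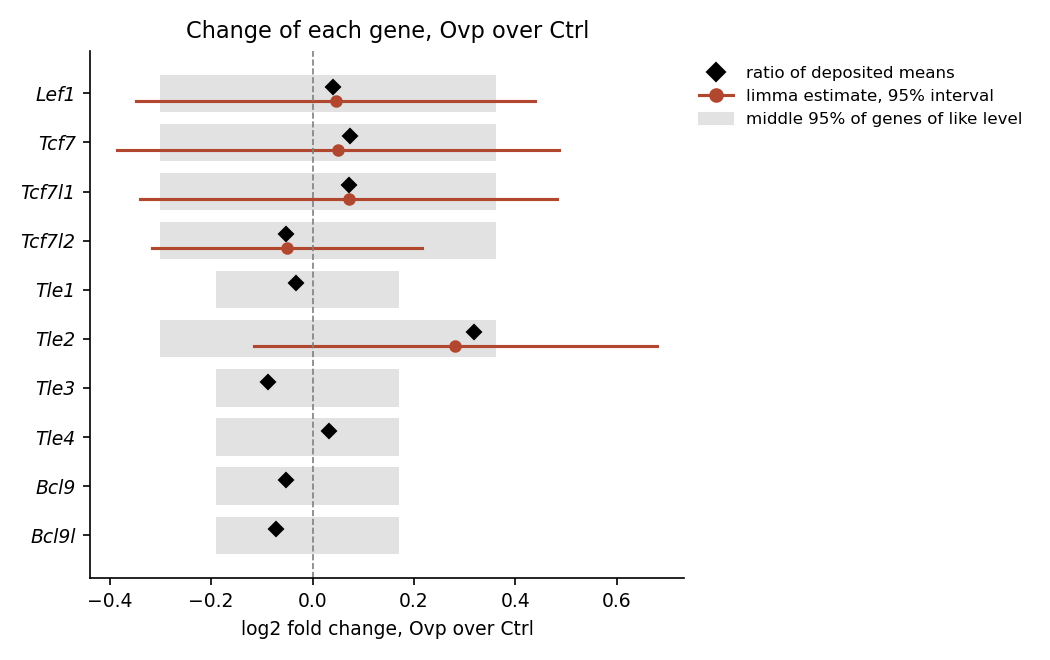
Log2 fold change (Ovp over Ctrl) of the 10 genes, as the ratio of the authors' means (black diamonds) and as limma estimates with 95% intervals for the 5 genes with library values (red). Grey bands hold the middle 95% of genes with a mean of 50 to 400 (-0.30 to 0.36) or 400 to 2000 (-0.19 to 0.17), and every diamond lies inside its band, Tle2 nearest to its edge.

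The annotation places genes on the opposite strand over the exons of 5 of the 10, and whether reads were counted by strand is not stated. The means of these partners were 0.521 for Gm43352 over Lef1, 0.548 for Gm15401 over Tcf7l1, 0 for Gm11250 over Tle1, 1.68 for Gm15917 over Tle2 and 11.8 for Cxcr5 over Bcl9l, and Gm47205, also over Bcl9l, was not analysed here. In GENCODE M21 on GRCm38 the TCF/LEF genes lie at chr3:131110471-131224356 (Lef1), chr11:52252371-52283014 (Tcf7), chr6:72626378-72789254 (Tcf7l1) and chr19:55741820-55933654 (Tcf7l2). The TLE genes lie at chr4:72117142-72200919 (Tle1), chr10:81574561-81590845 (Tle2), chr9:61372366-61418497 (Tle3) and chr19:14448150-14598051 (Tle4), and the BCL9 genes at chr3:97203662-97297917 (Bcl9) and chr9:44482825-44511896 (Bcl9l).

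A list of 42 other nuclear partners was set beside the 10 genes, and all 42 were measured. Of these, 0 passed 0.05 by the adjusted or the unadjusted p in the authors' deposited table, against 0.0% and 0.534% of 30152 tested genes. The mean was higher in Ovp for 20 and lower for 22, with a median log2 fold change of -0.0030 (0.0288 with both groups scaled to the same total), and 40 of 42 had group means within 1.2-fold. Among the 11645 genes whose mean reached 100, a level that some of the 42 did not reach, 42.2% were higher and 97.3% lay within 1.2-fold. Of the 26236 genes above 0 in both groups, 47.8% were higher. Beside these shares the counts are not a result about the partners. Of 19 coactivators 9 were higher and 10 lower in Ovp, with Smarca4, a chromatin remodelling ATPase, at 4655 in Ovp and 4796 in Ctrl cortex and Kmt2d, a histone methyltransferase, at 4030 in Ovp and 3809 in Ctrl. Pygo1 and Pygo2, the Pygopus partners of BCL9 named here after their values were seen, were at 850 and 797 in Ovp and at 818 and 812 in Ctrl. Of 17 corepressors and inhibitors 9 were higher and 8 lower in Ovp. Tle5, a short TLE relative listed under its older symbol Aes, was at 4636 in Ovp and 4744 in Ctrl, and the corepressor Ncor1 was at 6425 in Ovp and 6784 in Ctrl. Of 6 kinases and ligases that act on TCF, LEF or TLE proteins 2 were higher and 4 lower in Ovp, with Tnik at 5797 in Ovp and 5765 in Ctrl. The 2 genes outside 1.2-fold, named after their values were seen, were Sox7 at 84.3 in Ovp and 66.3 in Ctrl and Hipk2 at 894 in Ovp and 1074 in Ctrl. Sox7, a vascular transcription factor, had 52.1, 113.9 and 86.9 in Ovp A, B and C, against 58.03, 71.3 and 69.5 in Ctrl A, B and C, so that its groups overlapped. Med12, a Mediator subunit also named after its value was seen, had the lowest unadjusted p of the list in the authors' deposited table (0.0955), at 989 in Ovp and 843 in Ctrl.

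**Figure D5:**
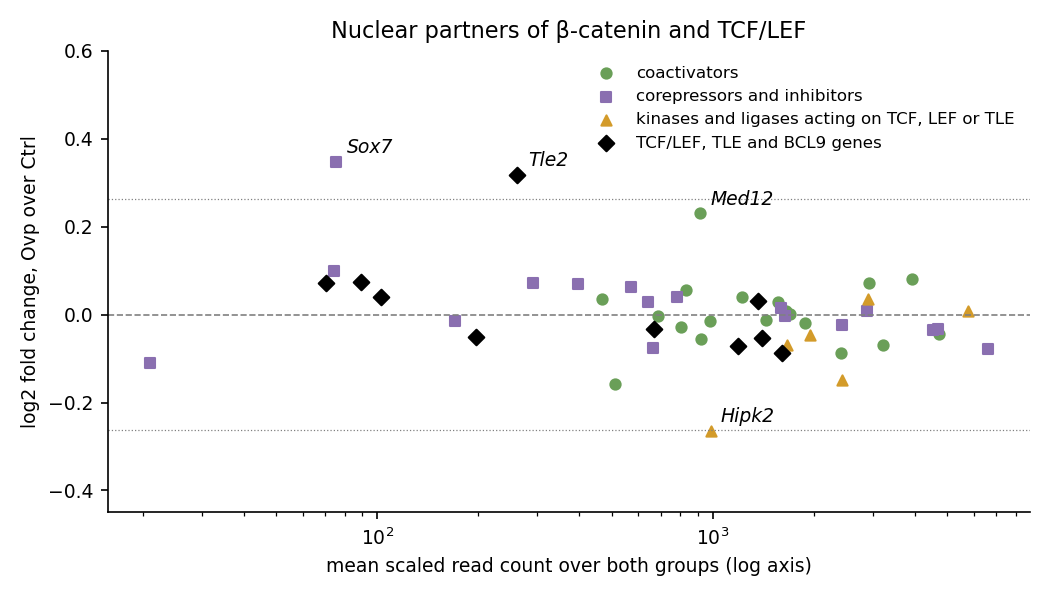
Log2 fold change (Ovp over Ctrl) against mean scaled read count (log axis) for 42 other nuclear partners by role and for the 10 TCF/LEF, TLE and BCL9 genes (black diamonds); dotted lines mark 1.2-fold. Beyond these lines lie Sox7, Tle2 and Hipk2, and 40 of the 42 partners lie between them. So do 97.3% of all 11645 genes whose mean reached 100, which are not drawn.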

How the data were processed

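RNA-seq of mouse cortex was analysed from 1 table of 3 Ovp against 3 Ctrl libraries. Libraries were made from 3 ug of total RNA with the Illumina TruSeq kit, per the labels' protocols. The submitters' processing notes name TopHat2 2.0.9 with Bowtie2 2.0.6. Build, annotation, read counter, strandedness and test: not given in the sources used here. As deposited, there was 1 signal value per gene and group, the authors' mean of scaled read counts as read from the values, and 2 p-value columns, raw and adjusted, per the file headers. Symbols were found for 46488 of 47069 Ensembl IDs.

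Fold changes were computed as log2 of the Ovp over the Ctrl mean. Library values were recovered by matching each mean, deposited with 10 significant digits, to whole reads of 3 libraries; means above 1000 were searched for the members alone, and above 200 library values had to lie within 2-fold of the mean. Exactly 1 combination fitted 99.3% of 21303 Ovp and 99.9% of 20693 Ctrl means up to 450, and 13.8% of Ovp and 99.5% of Ctrl means from 450 to 1000. For 10167 recovered genes whose mean reached 10, log2 of the value plus 1 was tested with limma 3.58.1 (R 4.3.3, trended prior variance) and Benjamini-Hochberg adjustment. Recovery and limma were tested on simulated data, with means over both groups up to 450 and the same dispersion for every gene. That test does not cover genes with higher means or with a larger spread than simulated. The main call was the authors' deposited adjusted p below 0.05. The members and lists were chosen with earlier results of these data known. Named genes were all members, the 6 most abundant other partners and any with an unadjusted p under 0.05, and the 2 most abundant of each marker list, of which 2 genes are not reported here. Slc17a6, Lhx9, Synpo2, Gbx2 and the endothelial markers were described by library after their values were seen.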

Additional observations from a re-analysis of the deposited data

How the results depend on the processing

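The number of genes and of members past the threshold was 0 in every setting that adjusted p-values: the authors' values, re-adjustment over genes with a mean of at least 10 (smallest adjusted p 0.0768), and limma on recovered libraries with all 6 or without any 1 of them. At an unadjusted p under 0.05 the authors' deposited table gave 161 genes and 0 members, and limma gave 209 genes. Scaling both groups to the same total, or setting the median log2 ratio to 0, shifted all log2 fold changes by 0.0318 or 0.0175. Under both scalings and with a pseudocount of 1 or 10, all 10 genes kept their direction, 5 of them higher in Ovp. The median of the other partners was -0.0030 as deposited and turned positive under the scalings, at 0.0288 and 0.0145. Of the 5 genes with library values 4 were higher in Ovp, but between 1 (without Ovp B) and 4 when 1 library was left out, and 2 without Ctrl A. The log2 fold change then ranged from -0.0604 to 0.191 for Lef1, being -0.0604 without Ovp B, -0.0318 without Ctrl A and -0.0229 without Ctrl B. It ranged from -0.108 to 0.243 for Tcf7, being -0.108 without Ovp B and -0.0307 without Ctrl A, and from -0.0365 to 0.156 for Tcf7l1, being -0.0246 without Ovp B and -0.0365 without Ctrl C. For Tcf7l2 it ranged from -0.102 to -0.0143 and for Tle2 from 0.0947 to 0.511. The median of the 7 other partners with library values ranged from 0.0290 to 0.0684. Recovered libraries were chosen as an alternative after seeing the data. edgeR and DESeq2 were not run. The table as deposited holds no counts per library, and whole reads were recovered for only part of the genes. No paired analysis was possible because the columns carry no replicate numbers. Depth limits the TCF/LEF genes most, with 53 to 226 reads per library.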

Other observations

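Genes whose library values most resembled those of Lef1 and Tcf7l2 were sought among 4716 recovered genes whose mean reached 100, by Pearson's r of log2 values over the 6 libraries, as a description. For Lef1 these were Smyd1 (r = 0.987), Gm43321 (r = 0.986) and Ctnnd1 (r = 0.979), the last encoding p120-catenin, a cadherin partner. For Tcf7l2 they were A230006K03Rik (r = 0.990), Ighm (r = 0.977) and Nubp1 (r = 0.9747). These were the top matches of 4716 genes over only 6 libraries, and the r that selection alone would give was not computed. The spread of Tcf7l2 was also below that of read counting alone. No relation between genes can be read from these matches.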
